A study of Schmidtea mediterranea with 15 samples.

Results

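Whole adult planarians sampled 48 h after gamma irradiation were compared with unirradiated planarians by sequencing of polyA RNA. The irradiated worms (48 h) had received 6000 rad and the unirradiated worms (0 h) had received 0 rad, and each group held 3 libraries. All worms were Schmidtea mediterranea, a freshwater flatworm, of the CIW4 clonal line, and were starved before use, so the controls share this feeding state and genetic background. The compared models were the 20060 of 26671 transcript models with at least 1 RPKM (reads per kilobase of model, scaled to library size) in at least 3 of these 6 libraries. The series also holds 3 libraries each at 24, 72 and 96 h after the same dose, which were used here to estimate the spread and to place the 48 h levels in time. No unirradiated worms kept for 48 h were analysed here, so irradiation and the time elapsed cannot be told apart. Whether the libraries within a group came from separately raised worms is not stated, and the p-values therefore reflect the spread among these samples alone, part of which may be technical.

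Planarians are known for regeneration, which rests on neoblasts, a dispersed population of dividing cells that includes the stem cells of the adult. Neoblasts are known to be killed by ionising radiation, whereas most differentiated cells survive for longer, and the descendants of neoblasts that were already on their way to a tissue continue to mature for some days. Sampling after irradiation has therefore been used to separate transcripts of dividing cells from those of their progeny and of mature tissues. In whole-worm RNA, fewer cells of a type and less RNA per cell cannot be told apart. The deposited table lists models by ID and does not pair the IDs with gene names, so the models are described by their level, their length and the way they changed. The labelled tissue could not be set against marker genes for the same reason.

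The 48 h libraries held 25805867, 19917638 and 29148526 reads, and the 0 h libraries held 13801926, 9749391 and 12435668 reads, as worked out from the steps of the RPKM values. Every 48 h library was thus deeper than every 0 h library. The log2 values of 2 libraries of the same group correlated across models with Pearson r of 0.993 to 0.994 at 48 h and of 0.987 to 0.989 at 0 h, against 0.965 to 0.968 for the 9 pairs of a 48 h and a 0 h library. These correlations are across models, which are not independent replicates. Among the 20060 models, 64 to 92 differed at least 2-fold between 2 libraries of 48 h and 240 to 306 between 2 libraries of 0 h, against 748 to 906 between a 48 h and a 0 h library.

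At 48 h the large changes were nearly all falls, while 51.3% of the called changes of any size were rises (58.6% after quantile normalization). Sizes of change were read on the scale of log2(RPKM + 0.5), which understates folds at low level. On that scale falls of at least 2-fold were found in 545 models, of at least 4-fold in 155 and of at least 8-fold in 62. Rises of that kind were found in 21 models for 2-fold and in 0 for 4-fold. By the plain ratio of mean RPKM, 742, 244 and 157 of the models called lower fell at least 2-fold, 4-fold and 8-fold, and 56 of those called higher rose at least 2-fold. With the models left out that reached 1 RPKM in all 3 libraries of 1 group and in none of the other, 318, 39 and 16 falls and 17 rises remained on the scale of RPKM + 0.5. Both checks were added after seeing the data. Without a limit on size, irradiated worms had 4315 models higher and 4103 lower than unirradiated worms (Benjamini-Hochberg adjusted p below 0.05, limma). Over all 21231 models of the series that were tested, 20.5% were called higher, 19.5% lower, 2.59% at least 2-fold lower, 0.73% at least 4-fold lower, 0.292% at least 8-fold lower and 0.118% at least 2-fold higher. The 20060 models are most of that set, so their counts can hardly differ from these shares. The number of 2-fold rises was 50 with a pseudocount of 0.1 RPKM, 12 with 1 RPKM and 39 with limma-voom on reads, and leaving out single libraries gave 41 (0 h replicate 1), 35 (48 h replicate 3) and 33 (0 h replicate 3). Both pseudocounts and limma-voom, in that order, gave 144, 32 and 158 falls of 8-fold and 233, 102 and 246 falls of 4-fold.

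**Figure D1:**
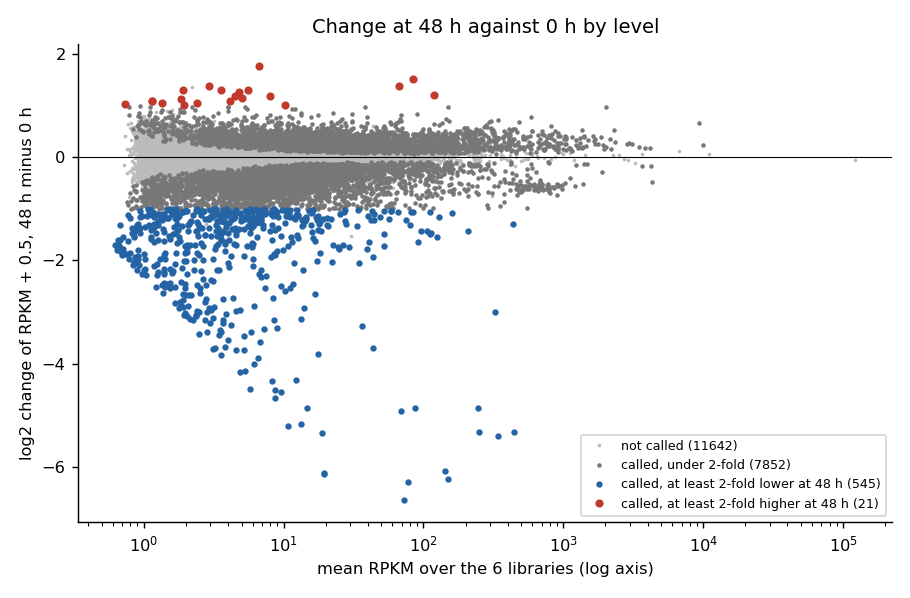
Change of each of the 20060 models at 48 h against 0 h (y axis, log2 of RPKM + 0.5, 48 h minus 0 h) against its mean RPKM over the 6 libraries (x axis, log scale), with 1 point per model. The 545 falls of at least 2-fold reach -6.65, whereas the 21 rises of at least 2-fold reach 1.78.

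The sizes of the called changes, on the scale of RPKM + 0.5, differed between the directions. Of the called rises, 1905 were under 1.2-fold, 2182 were of 1.2-fold to 1.5-fold, 207 were of 1.5-fold to 2-fold and 21 were of 2-fold to 4-fold. Of the called falls, 753 were under 1.2-fold, 1778 were of 1.2-fold to 1.5-fold, 1027 were of 1.5-fold to 2-fold, 390 were of 2-fold to 4-fold, 93 were of 4-fold to 8-fold and 62 were of 8-fold or more. Rises therefore outnumbered falls among the changes under 1.5-fold, and falls outnumbered rises above that size. The median called rise was 0.28 on the log2 scale and the median called fall was -0.49. Over all 20060 models the median change was 0.026, the lowest hundredth lay below -1.74 and the highest hundredth above 0.64. In 5198 models all 3 values at 48 h lay above all 3 at 0 h, and in 4774 all lay below, where the shares over all tested models were 25% and 22.8%.

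**Figure D2:**
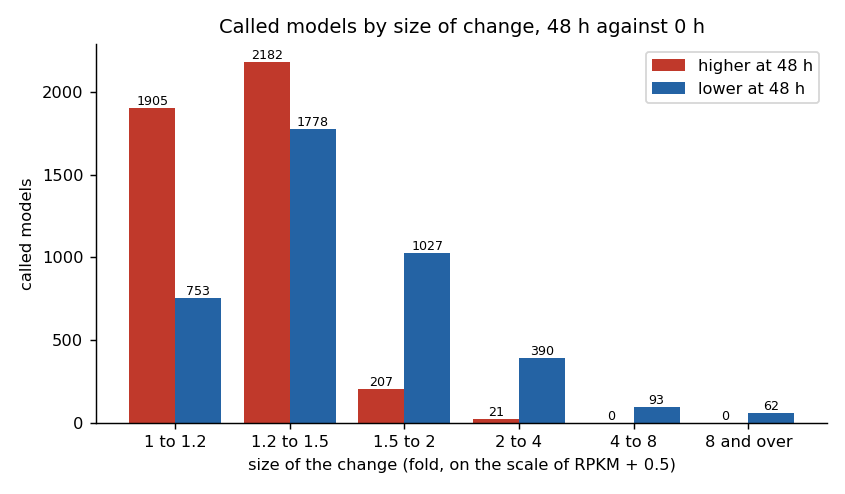
Number of called models (y axis, limma adjusted p below 0.05) by size of the change in fold of RPKM + 0.5 (x axis), with models higher at 48 h in red and models lower at 48 h in blue. Rises lead in the classes under 1.5-fold, and the classes from 4-fold upward hold 93 and 62 falls and 0 rises.

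On the scale of log2(RPKM + 0.5) the largest fall belonged to SMED30007406, a model of 2730 bases. It stood at 0.932, 0.932 and 0.914 RPKM in the 48 h libraries, against 147, 139 and 143 RPKM in the 0 h libraries. The models named here were chosen among those whose groups did not overlap, so separation was set by the choice. The 3 irradiated libraries were nearly equal. The mean was 0.926 ± 0.0106 RPKM at 48 h and 143 ± 4.26 RPKM at 0 h (SD, n = 3 each), which is 154-fold lower at 48 h by the ratio of mean RPKM. By that ratio 13 other called models stood lower still. The log2 change was -6.65 (SE 0.09, limma adjusted p = 1.12e-16). Each 48 h library gave 50 to 72 reads of this model and each 0 h library 3762 to 5575. By mean level this model ranked 19448 of 20060 at 48 h and 692 at 0 h.

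The next largest fall on the log2 scale was that of SMED30031235, a model of 1613 bases. Its values were 1.53, 1.36 and 1.503 RPKM at 48 h, against 154, 152 and 156 RPKM at 0 h. The 48 h values were again close together. Its mean level was 1.46 ± 0.0932 RPKM at 48 h and 154 ± 2.36 RPKM at 0 h (SD, n = 3 each), or 105-fold lower at 48 h by the ratio of mean RPKM, with 21 called models lower still by that ratio. The log2 change was -6.30 (SE 0.07, limma adjusted p = 1.34e-17). Each 48 h library gave 43 to 70 reads of it and each 0 h library 2426 to 3450.

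In the 24 h libraries both models already stood far below the 0 h values. The mean of SMED30007406 was 143 ± 4.26 RPKM at 0 h, 2.97 ± 0.156 RPKM at 24 h, 0.926 ± 0.0106 RPKM at 48 h, 0.903 ± 0.12 RPKM at 72 h and 0.686 ± 0.115 RPKM at 96 h (SD, n = 3 each). Between 24 and 48 h it fell by 1.28 on the log2 scale (SE 0.09, limma adjusted p = 4.72e-07), and 48 h did not differ from 72 h beyond the spread (log2 difference of 48 h minus 72 h 0.03, SE 0.09, limma adjusted p = 0.948). The mean of SMED30031235 was 154 ± 2.36 RPKM at 0 h, 3.07 ± 0.151 RPKM at 24 h, 1.46 ± 0.0932 RPKM at 48 h, 1.96 ± 0.104 RPKM at 72 h and 1.25 ± 0.121 RPKM at 96 h. It was lower at 48 h than at 24 h (log2 difference -0.86, SE 0.07, limma adjusted p = 3.51e-06). It was also lower at 48 h than at 72 h (log2 difference -0.33, SE 0.07, limma adjusted p = 0.0351), so its means after the first day did not decline steadily. Both models were chosen by their 48 h values, which these contrasts reuse, so low values at 48 h were favoured by the choice.

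The largest rise belonged to SMED30033239, a short model of 382 bases at a low level. Its values were 9.69, 12.7 and 9.52 RPKM at 48 h, against 3.59, 2.903 and 1.897 RPKM at 0 h. The 0 h values spread widely for their size, in a model chosen for groups that did not overlap. The mean was 10.6 ± 1.76 RPKM at 48 h and 2.797 ± 0.852 RPKM at 0 h (SD, n = 3 each), a ratio of 3.799. The log2 change was 1.78 (SE 0.19, limma adjusted p = 1.95e-06). The counts behind it were small, with 95 to 105 reads in each 48 h library and 9 to 19 in each 0 h library.

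The second largest rise on the scale of log2(RPKM + 0.5), that of SMED30027500, came from a more abundant model of 671 bases. By the ratio of mean RPKM other rises were larger, as the upper quartile of the 21 rises of 2-fold was 310% of the 0 h level. It stood at 134, 129.9 and 111 RPKM at 48 h, against 43.7, 42.8 and 43.7 RPKM at 0 h. The 0 h libraries were nearly equal, and 48 h replicate 3 was the lowest of the irradiated ones while still far above them. The mean was 125 ± 12.1 RPKM at 48 h and 43.4 ± 0.4997 RPKM at 0 h (SD, n = 3 each), a ratio of 2.88. The log2 change was 1.51 (SE 0.08, limma adjusted p = 1.55e-09), and the reads numbered 1713 to 2335 in the 48 h libraries and 285 to 406 in the 0 h libraries.

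In the 24 h libraries both models stood close to their 48 h values. SMED30033239 had means of 2.797 ± 0.852 RPKM at 0 h, 9.48 ± 2.12 RPKM at 24 h, 10.6 ± 1.76 RPKM at 48 h, 7.87 ± 0.601 RPKM at 72 h and 5.45 ± 0.935 RPKM at 96 h (SD, n = 3 each). Its level at 48 h did not pass the test against 24 h (limma adjusted p = 0.644) or against 72 h (limma adjusted p = 0.388). SMED30027500 had means of 43.4 ± 0.4997 RPKM at 0 h, 134.5 ± 15.7 RPKM at 24 h, 125 ± 12.1 RPKM at 48 h, 84.5 ± 8.71 RPKM at 72 h and 69.7 ± 2.41 RPKM at 96 h. It was higher at 48 h than at 72 h (log2 difference 0.57, SE 0.08, limma adjusted p = 0.00151), whereas the difference from 24 h was -0.10 (SE 0.08, limma adjusted p = 0.504). Both models were chosen by their 48 h values, which these contrasts reuse, so high values at 48 h were favoured by the choice.

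**Figure D3:**
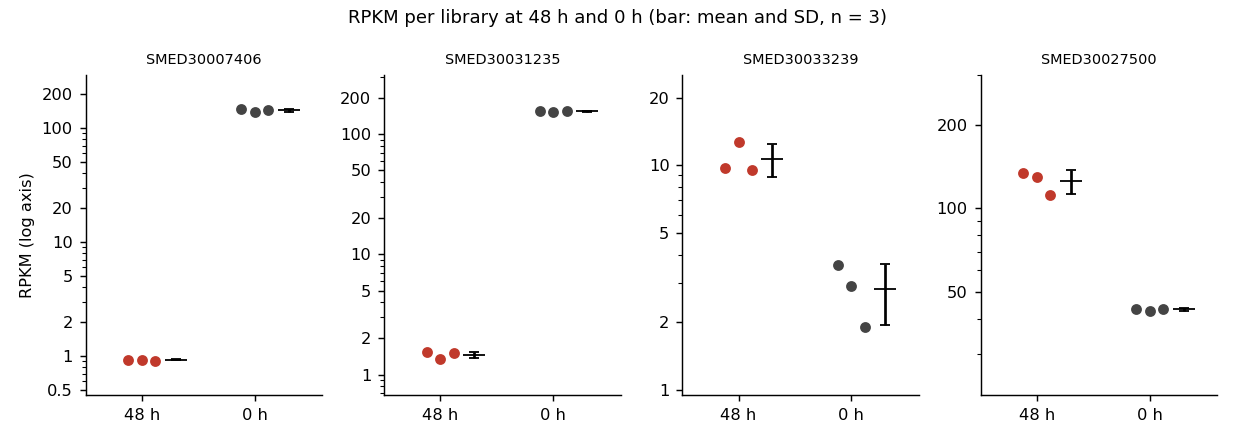
RPKM (y axis, log scale) of 2 strongly falling models (SMED30007406 and SMED30031235) and 2 strongly rising ones (SMED30033239 and SMED30027500), with 1 point per library at 48 h (red) and at 0 h (dark grey) and a bar for the mean and SD of 3 libraries. The 4 models were chosen among those whose 48 h and 0 h libraries do not overlap, so that separation is set by the choice.

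The 545 models that fell at least 2-fold were mostly of low to middling level in unirradiated worms, as were all 20060 models. Over the 20060 models the median at 0 h was 7.48 RPKM, with quartiles of 2.61 and 19.7 RPKM. The 545 had a median level of 1.41 RPKM at 48 h and 5.802 RPKM at 0 h. Their quartiles were 0.373 and 4.001 RPKM at 48 h and 2.96 and 13.9 RPKM at 0 h. At 48 h they held a median of 28.3% of their 0 h level, with quartiles of 8.59% and 39.5%. Of these models, 160 lay below 0.5 RPKM at 48 h, and 45 had stood at 50 RPKM or more at 0 h, as had 2006 of all 20060 models. The 62 models that fell 8-fold or more on the scale of RPKM + 0.5 held a median of 2.36% of their 0 h level, at 0.285 RPKM at 48 h and 11.8 RPKM at 0 h. In the 545 models a median of 120 reads summed over 3 libraries lay behind the 48 h level and 286 behind the 0 h level. In 2 of them 0 reads were found in all 3 libraries at 48 h. With a floor of 3 reads per library these 2 models were at least 6.23-fold and at least 17.8-fold lower, and with them at these bounds the median log2 change of the 545 stayed at -1.47.

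Together the 545 falling models, chosen for their fall, took 0.462%, 0.412% and 0.4301% of the reads of the 48 h libraries, against 1.57%, 1.55% and 1.62% of the 0 h libraries. The mean share was 0.435% ± 0.0252 at 48 h and 1.58% ± 0.0379 at 0 h (SD, n = 3 each). The 62 models with 8-fold falls took 0.00896% ± 0.000583 of the 48 h reads and 0.383% ± 0.00495 of the 0 h reads. The 545 models had a median length of 1273 bases, with quartiles of 714 and 1975, and all 20060 models had a median of 1181 bases, with quartiles of 645 and 1923.

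The limit of 1 RPKM admitted some models through 1 group only. In 342 models all 3 libraries at 0 h and 0 at 48 h reached 1 RPKM, and 312 of these were called lower and 227 fell at least 2-fold. In 57 models all 3 libraries at 48 h and 0 at 0 h did so, and 30 of these were called higher and 4 rose at least 2-fold. Such models had to differ in order to be admitted. Of the 20060 models, 17486 (87.2%) reached 1 RPKM in all 6 libraries, and among these 285 fell and 12 rose at least 2-fold. Just inside the limit, 958 models reached 1 RPKM in exactly 3 of the 6 libraries, with median levels of 0.904 RPKM at 48 h and 1.15 RPKM at 0 h. Just outside it, 824 models did so in exactly 2 libraries, with medians of 0.832 and 0.923 RPKM at 48 h and 0 h.

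The 21 models with 2-fold rises were fewer and shorter than those with 2-fold falls. Their median level was lower at 0 h and higher at 48 h, which the choice by direction favoured. Their median length was 577 bases, with a range of 183 to 1421 bases. Their median level was 5.7995 RPKM at 48 h and 2.45 RPKM at 0 h, and 10 of them lay below 2 RPKM at 0 h. A single one stood at 50 RPKM or more at 0 h. Their reads summed over 3 libraries had a median of 209 at 48 h and 39 at 0 h, and 7 of them had fewer than 30 at 0 h. Together the 21, chosen for their rise, took 0.034%, 0.0317% and 0.0285% of the reads of the 48 h libraries, against 0.0127%, 0.01202% and 0.0121% of those at 0 h.

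Although few rises were large, the reads gained by the called rises were many. The 4315 models called higher, chosen for their direction, took 43.4%, 42.99% and 42.2% of the reads at 48 h, against 35.5%, 35.7% and 35.6% at 0 h. The 4103 models called lower took 17.99%, 17.7% and 17.8% at 48 h, against 24.6%, 24.7% and 24.7% at 0 h. The 11642 models that were not called took 39.03% ± 0.729 at 48 h and 39.4% ± 0.161 at 0 h (SD, n = 3 each). RPKM and shares of reads are relative to the library, so a gain in one part of it is bound to a loss in another. The model with the most reads, with 10.8% ± 0.516 of the 48 h reads and 11.4% ± 0.381 of the 0 h reads, was not called (log2 change -0.05, SE 0.12, limma adjusted p = 0.756).

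The share of models called grew with level. Classes were set by the mean RPKM over the 6 libraries. Below 2 RPKM, 127 models were called higher and 407 lower of 3918, and from 2 to 10 RPKM 992 were higher and 1637 lower of 7713. From 10 to 50 RPKM 2119 were higher and 1576 lower of 6383, from 50 to 250 RPKM 849 were higher and 358 lower of 1636, and at 250 RPKM and above 228 were higher and 125 lower of 410. Falls thus outnumbered rises in both classes below 10 RPKM with the deposited scaling, and rises outnumbered falls in the 3 classes above. After quantile normalization, however, rises led from 2 to 10 RPKM as well, at 1756 higher and 1305 lower (57.4% of calls were rises, against 37.7% before), and below 2 RPKM 45.3% of calls were rises, against 23.8% before. The falls of at least 2-fold were 158 (4.03%), 262 (3.397%), 92 (1.44%), 28 (1.71%) and 5 (1.22%) of the 5 classes from low to high. In the lowest class they numbered 102 when 1 RPKM was added before the log and 255 with limma-voom. Of the 158 falls in that class, 143 were models that had reached 1 RPKM in all 3 libraries of 0 h and in none of 48 h, so the rule of admission sets most of that share. Without models admitted through 1 group the 2-fold falls were 15 (0.416%), 186 (2.44%), 85 (1.33%), 27 (1.65%) and 5 (1.22%) of the classes from low to high, and the calls below 2 RPKM were 97 higher and 179 lower.

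**Figure D4:**
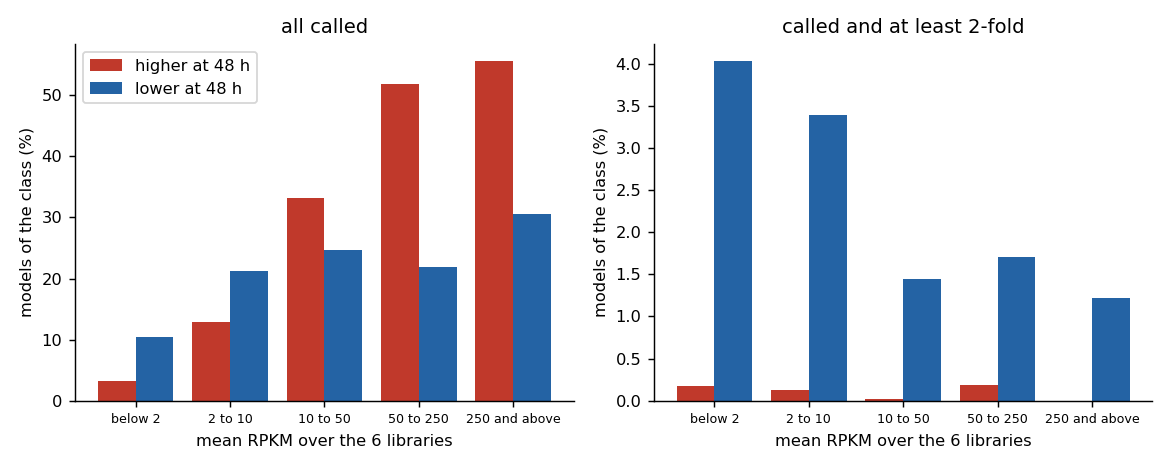
Percentage of the models of each level class (x axis, mean RPKM over the 6 libraries) that were called higher (red) or lower (blue) at 48 h (left panel) and that were called and changed at least 2-fold (right panel), on separate y axes that start at 0. With the deposited scaling rises lead from 10 RPKM upward in the left panel (from 2 RPKM upward after quantile normalization), whereas falls lead in every class of the right panel, where 143 of the 158 falls below 2 RPKM are models admitted through 0 h only.

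The precision also differed between these classes. The median SE of the log2 change was 0.197 below 2 RPKM, 0.11 from 2 to 10, 0.058 from 10 to 50, 0.041 from 50 to 250 and 0.039 at 250 RPKM and above. The smallest change that was called was 1.23-fold in the lowest class and 1.05-fold in the highest. In the lowest class a model had a median of 22.3 reads per library at 48 h and 12 at 0 h, and the median SD of its log2 values was 0.19 at 48 h and 0.25 at 0 h. Among models below 2 RPKM, small changes of the kind called at high level were therefore not detectable at this depth.

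At the highest level, a group of models with moderate falls was picked out by its range of change. Of the 410 models at 250 RPKM and above, 10 lay below -0.8 on the log2 scale and 57 lay from -0.4 to 0. Between them, 83 (20.2%) changed by -0.8 to -0.4, and 82 of these were called lower. With a median SE of 0.033, such calls follow from the choice by size. In the class from 50 to 250 RPKM, 111 of 1636 models (6.78%) lay in that range. The 83 models, picked after seeing their values and so described with no test, had a median level of 503 RPKM at 48 h and 753 RPKM at 0 h. Their median length was 639 bases, with quartiles of 516.5 and 812 bases, where all 410 had a median of 768 bases and the 58 with changes of 0.4 and over had a median of 674 bases. Together they took 3.67%, 3.58% and 3.54% of the reads at 48 h, against 5.35%, 5.32% and 5.46% at 0 h. That loss of reads was larger than that of the 545 models with 2-fold falls. Set against 0 h, their median log2 change was -0.46 for 24 h, -0.56 for 48 h, -0.69 for 72 h and -0.74 for 96 h.

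The 100 most abundant models held no change of 2-fold or more in either direction. Of these, 63 were called higher, 20 lower and 17 were not called, and their changes ranged from -0.73 to 0.98 on the log2 scale. Over all tested models 20.5% were called higher and 19.5% lower, and of the 410 models at 250 RPKM and above 228 were higher and 125 lower. Their share of the reads was 28.4% ± 0.416 in the 48 h libraries and 28.4% ± 0.408 in the 0 h libraries (SD, n = 3 each).

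Taken over all levels, longer models were called more often. In 4 length classes of nearly equal size, 1324 (26.4%) of the shortest models (60 to 645 bases), 2131 (42.5%) of the next (646 to 1181), 2479 (49.5%) of the third (1182 to 1923) and 2484 (49.6%) of the longest (1924 to 23779) were called in either direction, where 40% of all tested models were. Length and level went together, with median levels of 3.03, 7.29, 9.36 and 10.5 RPKM in these classes from short to long, and a longer model collects more reads at the same RPKM. Within levels, the share called grew with length below 10 RPKM and was highest in the third length class from 10 to 250 RPKM. At 250 RPKM and above it was 90.2%, 89.0%, 79.2% and 72.2% from short to long. The share with 2-fold falls over all levels was 2.39%, 2.53%, 3.09% and 2.85% in the same order. Without models admitted through 1 group the 2-fold falls in these classes numbered 77, 71, 86 and 84, in place of 120, 127, 155 and 143. From 10 to 50 RPKM, where 7 of 92 falls came from such models, the shares were 2.64%, 1.61%, 1.19% and 1.09% from short to long. From 50 to 250 RPKM they were 2.11%, 1.87%, 1.73% and 1.11%. From 2 to 10 RPKM, where 76 of 262 falls came from such models, they were 2.92%, 2.96%, 3.91% and 3.76%. Without such models the shares from 2 to 10 RPKM were 2.09%, 1.92%, 2.87% and 2.82%. The falls thus showed no single trend with length across levels. Over all levels the 2-fold rises numbered 13, 6, 2 and 0 in the 4 length classes from short to long.

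Most of the models with 2-fold falls at 48 h were not called between other irradiated times. Of these models, 160 lay below 0.5 RPKM at 48 h, where the scale of RPKM + 0.5 understates further loss. Their median level was 5.802 RPKM at 0 h, 1.68 RPKM at 24 h, 1.41 RPKM at 48 h, 1.29 RPKM at 72 h and 1.27 RPKM at 96 h. When 72 h was tested against 24 h, a contrast that uses none of the 6 libraries that chose them, 145 of the 545 were lower at the later time, 7 higher and 393 not called (limma). Over all tested models 10.2% were called lower and 10.1% higher in that contrast. Of the 62 models with 8-fold falls, 26 were lower at 72 h than at 24 h, 0 higher and 36 not called. When 96 h was tested against 72 h, 12 were lower at the later time, 4 higher and 529 not called, where 3.6% of all tested models were lower and 1.34% higher. The median change of the 545 was -0.17 in the first of these contrasts and 0.013 in the second, against 0.0022 and -0.0052 over the 20060 models. Leaving out 0 h replicate 2, which alters the set chosen, gave 4 falls higher at 72 h than at 24 h, and leaving out 0 h replicate 1 or 2 gave 2 falls higher at 96 h than at 72 h.

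The 21 models chosen for 2-fold rises stood at similar levels at 24 and 48 h and lower at 72 and 96 h. They had median levels of 2.45 RPKM at 0 h, 5.45 RPKM at 24 h, 5.7995 RPKM at 48 h, 4.57 RPKM at 72 h and 3.698 RPKM at 96 h. Set against 0 h, their median log2 change was 1.19 at both 24 and 48 h, 0.83 at 72 h and 0.58 at 96 h. From 24 to 72 h, 7 of the 21 were called lower, 1 higher and 13 neither (limma). From 72 to 96 h, 2 of the 21 were called lower, 0 higher and 19 neither (limma). Over all tested models 10.2% were lower and 10.1% higher in the first contrast, and 3.6% and 1.34% in the second. The median log2 changes of the 21 were -0.33 and -0.27 in these contrasts, which share no library with the choice of the 21. Leaving out 48 h replicate 3 gave 5 rises lower at 96 h than at 72 h. The 1 rise higher at 72 h became 0 without 48 h replicate 1 or 2 or 0 h replicate 1, and 2 without 0 h replicate 3.

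Few models stood apart at 48 h from both neighbouring times. A total of 22 models were higher at 48 h than at both 24 h and 72 h, and 5 were lower than at both (limma, adjusted p below 0.05 in both contrasts), which is 0.104% and 0.0236% of all tested models. The 22 differed from 24 h by a median of 0.30 and from 72 h by a median of 0.27 on the log2 scale, and none differed 2-fold from either. Against 0 h, 17 of the 22 were higher and 5 lower at 48 h, where 20.5% and 19.5% of all tested models were. The 22 were chosen for high 48 h values, which this contrast reuses, so rises were favoured by the choice. Of the 5 that were lower than at both neighbouring times, 2 were higher at 48 h than at 0 h, 2 were lower and 1 was not called, and SMED30031235 was among them. Neither set was tested at 48 h against 96 h, so 48 h need not be their extreme. Some of the 5, with SMED30031235 among them, lay lower still at 96 h, and some of the 22 lay higher there. In log2 units relative to 0 h, the middle value of the 5 went from 0.090 (48 h) to -0.139 (96 h). That of the 22 went from 0.365 to 0.199. The counts depend on single libraries, with 9, 9 and 6 models in place of 22 without 48 h replicates 1, 2 and 3 and 13 without 0 h replicate 1, and 2 in place of 5 without 48 h replicate 1, 2 or 3 or 0 h replicate 2, and 3 without 0 h replicate 3. With limma-voom 86 models were higher than at both times.

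**Figure D5:**
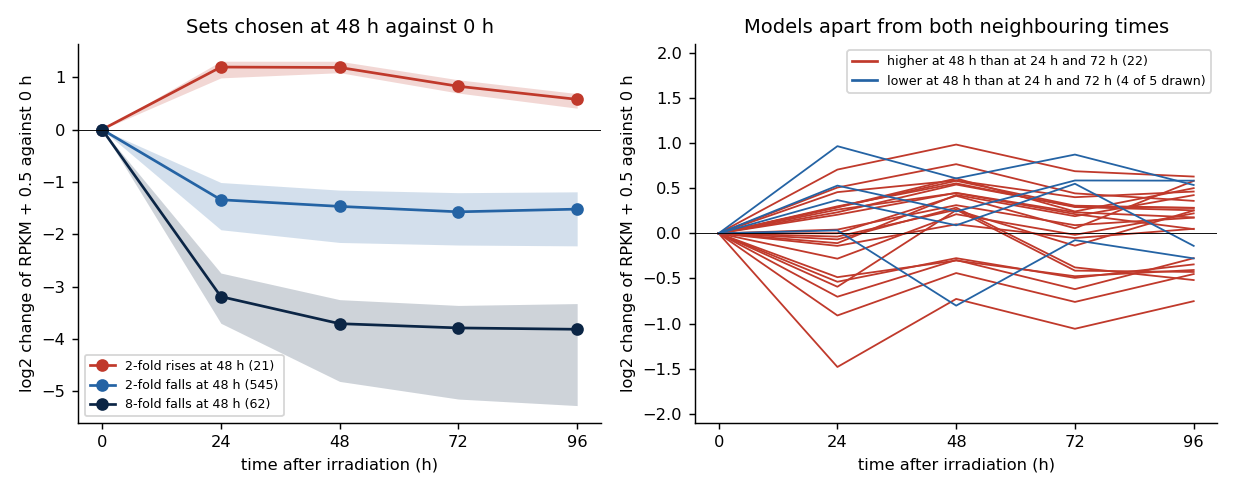
Change against 0 h (y axes, log2 of RPKM + 0.5) by time after irradiation (x axes, h). The left panel shows the median (line) and quartiles (shading) of the models with 2-fold rises, 2-fold falls and 8-fold falls at 48 h, and the right panel has 1 line per model that was higher (red) or lower (blue) at 48 h than at both 24 h and 72 h, leaving out SMED30031235 at -6.30. The rises lie at 1.19 at 48 h and 0.58 at 96 h, while the 2-fold falls lie at -1.47 at 48 h and -1.52 at 96 h.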

How the data were processed

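The authors deposited RPKM values for 26671 transcript models in 15 libraries. Per the labels' protocols the libraries were made from polyA RNA of whole worms with an Illumina TruSeq kit. CASAVA 1.8.2, Bowtie and edgeR appear in the submitters' processing notes without a stated role. How reads were mapped, to which transcripts and whether by strand is not given in the sources used, so near-identical, overlapping or antisense models may share reads. Model lengths and whole reads were worked out from the steps of the RPKM values, and all 26671 models (100%) came out whole within 0.001 reads. The authors' scaling divisors were 0.974 to 1.03 times the reads.

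The 21231 models that reached 1 RPKM in 3 or more of the 15 libraries were fitted as log2(RPKM + 0.5) with a mean per time point, using limma 3.58.1 (R 4.3.3), whose moderation of the variances let them vary with level. All 15 libraries entered the fit, and p-values were two-sided and adjusted by Benjamini-Hochberg over the 21231 models within a contrast. A model was called at an adjusted p below 0.05. Changes on this scale understate those of models at low level. Results are given for the 20060 models that reached 1 RPKM in 3 or more of the 6 libraries compared. The models named are the 2 largest falls and the 2 largest rises by change of log2(RPKM + 0.5). They come from called models with all 3 values beyond those of 0 h and a mean of 5 RPKM or more in either group. The planned set of cell type markers was not tested, because no ID is paired with a name. Members and rules were chosen with earlier results of these data known. The fit and the recovery of reads were tested on simulated data. Python 3.11.15, numpy 2.4.6, pandas 2.3.3 and matplotlib 3.10.9 were used for tables and figures. Alternatives were other pseudocounts, filters and adjustments, a fit to 6 libraries, a replicate block, quantile normalization, limma-voom on reads and each 48 h or 0 h library left out.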

Additional observations from a re-analysis of the deposited data

Results flagged for a closer look

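Levels at 48 h that differed from a neighbouring time in a direct limma contrast stood out. SMED30007406 was lower at 48 h than at 24 h by a log2 difference of -1.28. SMED30031235 was lower at 48 h than at 24 h, with a log2 difference of -0.86, and lower at 48 h than at 72 h, with a log2 difference of -0.33. SMED30027500 was higher at 48 h than at 72 h, with a log2 difference of 0.57. In each of these 4 differences all 3 libraries of 48 h lay beyond the 3 of the other time. The named models were chosen by their 48 h values, which these contrasts reuse. In addition, 22 models were higher at 48 h than at both 24 h and 72 h, and 5 were lower than at both.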

How the results depend on the processing

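The 4 named models kept their direction and their call under all 15 alternatives, with log2 changes of -7.26 to -6.22 for SMED30007406, -6.698 to -5.98 for SMED30031235, 1.56 to 1.95 for SMED30033239 and 1.46 to 1.59 for SMED30027500. Of the counts and shares, 521 values stayed within 1.5 times the main count or within 1 SD and 68 did not, and the cause was not tested where none is given. The models called higher numbered 3717 to 5251 and those called lower 3265 to 4136 over the alternatives other than those that leave out 1 library, with the lowest number of rises from the fit to 6 libraries alone.

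With 0.1 and 1 RPKM as pseudocounts, the 2-fold rises numbered 50 and 12, the 4-fold falls 233 and 102, the 8-fold falls 144 and 32 and the rises higher at 72 h than at 24 h 2 and 0, and the 2-fold falls below 2 RPKM were 102 with 1 RPKM. With limma-voom these were 39 rises, 246 and 158 falls and 255 falls below 2 RPKM, 86 models were higher at 48 h than at both neighbouring times, 11 falls were higher and 11 rises lower at 72 h than at 24 h, and 9 falls were higher and 4 rises lower at 96 h than at 72 h. A filter of 5 RPKM in 3 libraries, which tests fewer models, gave 12 rises, 285 falls of 2-fold and 83 of 4-fold, 159 falls from 2 to 10 RPKM, 64, 72, 73 and 76 falls in the 4 length classes, 36 models higher than at both neighbouring times, 0 rises higher at 72 h than at 24 h and a median change of 0.056. With no filter 12 models were higher and 2 lower than at both times, and 2 falls were higher at 96 h than at 72 h. Quantile normalization gave 33 rises, 1 of them lower at 96 h than at 72 h, and a median of 0.077, and raised the share of rises among all calls to 58.6% from 51.3%. Leaving out models admitted through 1 group, which removes models that differ by construction, gave 318, 39 and 16 falls of 2-fold, 4-fold and 8-fold, 15 falls below 2 RPKM, and 77, 71, 86 and 84 falls in the 4 length classes. Sizes from the ratio of mean RPKM gave 244 and 157 falls of 4-fold and 8-fold and 56 rises of 2-fold.

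Same-numbered libraries of 48 h and 0 h deviated from their group means with correlations of 0.011, -0.029 and 0.0045, so the numbers are not treated as pairs. With the replicate block 4292 models were higher and 4095 lower, and 3 models in place of 5 were lower at 48 h than at both neighbouring times, and no named model lost its call.

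Leaving out 1 library at a time gave 20 to 41 rises of 2-fold, 555 to 565 falls, 6 to 18 models higher and 2 to 4 lower than at both neighbouring times, and a median of 0.018 to 0.031. Among the falls 4 to 8 were higher at 72 h than at 24 h and 2 to 5 higher at 96 h than at 72 h. Among the rises 0 to 2 were higher at 72 h than at 24 h and 2 to 5 lower at 96 h than at 72 h. The 0 h libraries were the shallowest, and the median SE of the log2 change was largest below 2 RPKM, at 0.197.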
